A study of Mus musculus with 12 samples.

Results

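The MS4A family members *Ms4a4a*, *Ms4a4b*, *Ms4a4c*, *Ms4a6b*, *Ms4a6c*, *Ms4a6d* and *Ms4a7* were followed across RNA-sequencing libraries of CD11b-positive cells from the mouse cerebral cortex. These 7 genes were taken by symbol from a table of 55487 genes, in which 19 symbols begin with Ms4a. Libraries were made from 12 male mice, 3 in each of 4 groups. WT mice and App NL-G-F mice, whose own *App* gene carries a humanized sequence with mutations of familial Alzheimer's disease (AD), each received PBS (veh groups) or rh Bri2 BRICHOS R221E (BRICHOS groups), a recombinant human chaperone domain. Injections of PBS or of 10 mg/kg of the protein were intravenous, 24 in number over 12 weeks from the age of 9 months, and were followed by 4 weeks without treatment. The cells were obtained with anti-CD11b magnetic beads after papain digestion, and CD11b is also carried by macrophages at the borders of the brain, monocytes and neutrophils. The App NL-G-F line is a knock-in, so that the changed gene stays under its own promoter, and WT mice carry none of these changes.

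MS4A proteins are small proteins that cross the cell membrane several times, and many are found on cells of the blood lineage. Best known are CD20 of B cells, encoded by *Ms4a1*, and the beta chain of the high-affinity IgE receptor of mast cells, encoded by *Ms4a2*. Human variants near MS4A4A and MS4A6A are associated with AD risk and with the amount of soluble TREM2, a microglial receptor, in cerebrospinal fluid, which is why the family is studied in microglia. The mouse has several genes related to MS4A6A, among them *Ms4a6b*, *Ms4a6c* and *Ms4a6d*. In mice, *Ms4a4a* and *Ms4a7* are used to mark macrophages and *Ms4a7* in particular macrophages of the brain borders, whereas *Ms4a4b* has been studied in T cells.

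All 7 members lie on chromosome 19 between positions 11321039 and 11604849 of GRCm38, within 283811 bases. *Ms4a7* (11321039 to 11336146, minus strand) comes first. It is followed on the plus strand by *Ms4a4a* (11375523 to 11392790), *Ms4a4c* (11404770 to 11427246), *Ms4a4b* (11443553 to 11467055), *Ms4a6c* (11469366 to 11482192) and *Ms4a6b* (11516512 to 11531256), and then on the minus strand by *Ms4a6d* (11586604 to 11604849). The coding sequences of *Ms4a6b* and *Ms4a6c* were identical at 85.4% of aligned bases, those of *Ms4a6b* and *Ms4a6d* at 81.2%, and those of *Ms4a6c* and *Ms4a6d* at 79.0%. A closer pair was formed by *Ms4a4b* and *Ms4a4c*, with 91.7%.

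The first 90 coding bases of the Ms4a6 genes are shown because the results turn on the differences between these close relatives. Each stretch lies in 1 exon, and capitals mark the bases that differ from *Ms4a6b*.
Ms4a6b (chr19:11520339-11520428, plus strand): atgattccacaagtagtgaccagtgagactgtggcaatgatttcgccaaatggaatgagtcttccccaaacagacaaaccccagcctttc
Ms4a6c (chr19:11471105-11471194, plus strand): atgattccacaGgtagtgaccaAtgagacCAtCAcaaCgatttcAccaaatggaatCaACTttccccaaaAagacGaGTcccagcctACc
Ms4a6d (chr19:11603203-11603292, minus strand): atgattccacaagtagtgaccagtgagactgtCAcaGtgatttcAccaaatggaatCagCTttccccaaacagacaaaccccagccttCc
In this stretch *Ms4a6c* differed from *Ms4a6b* at 18 bases and *Ms4a6d* at 8 bases. Over whole transcripts, 3.57% of the 50-base words of *Ms4a6b* and 2.54% of those of *Ms4a6d* occurred in a transcript of another gene, and none of their 100-base words did. For *Ms4a4a* no 50-base word was shared, and for *Ms4a4c* 8.19% were. *Ms4a6c* shared 51.4% of its 50-base words with another gene, nearly all with *BE692007*, an antisense gene whose exons cover 1088 of its bases on the opposite strand. The library kit keeps the strand, but the strand setting of the counting was not stated. *BE692007* held 51 counts in all 12 libraries against 6845 for *Ms4a6c*.

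The regions around the starts of *Ms4a6b* and *Ms4a6c* are shown because these neighbours differed in their values between the strains while their start regions are alike. Each RefSeq sequence (GRCm38.p6) runs from 250 bases before to 50 bases after the start, and capitals mark GGAAGT, a form of the binding site of ETS factors such as the macrophage factor PU.1, on either strand.
Ms4a6b (chr19:11518309-11518608, plus strand): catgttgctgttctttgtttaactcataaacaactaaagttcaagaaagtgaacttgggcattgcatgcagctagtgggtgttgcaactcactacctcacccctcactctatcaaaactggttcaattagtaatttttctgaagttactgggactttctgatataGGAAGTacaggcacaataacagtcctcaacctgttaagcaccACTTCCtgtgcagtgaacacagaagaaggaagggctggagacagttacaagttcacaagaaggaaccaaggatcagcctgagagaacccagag
Ms4a6c (chr19:11469118-11469417, plus strand): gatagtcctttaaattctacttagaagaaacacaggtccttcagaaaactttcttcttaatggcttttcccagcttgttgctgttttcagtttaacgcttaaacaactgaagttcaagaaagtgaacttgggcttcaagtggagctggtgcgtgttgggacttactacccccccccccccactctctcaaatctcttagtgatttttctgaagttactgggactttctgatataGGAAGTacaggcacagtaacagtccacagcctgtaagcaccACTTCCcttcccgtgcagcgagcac
A local alignment covered 218 bases, of which 188 (86.2%) were identical. The alike sequence lay at different distances from the annotated starts, and the alignment began at position -248 in *Ms4a6b* and -175 in *Ms4a6c*. The GGAAGT matches began at -85 and -43 in *Ms4a6b* and at -16 and 25 in *Ms4a6c*. GGAAGT was found in both, 2 times in each, and at least once in 23.8% of all 32817 start regions of this length. No match in either was found for GAGGAAGT (3.20% of all start regions), GAGGAA (28.3%), GAAANNGAAA (3.43%), TGANTCA (7.81%), CACGTG (7.15%) or TTGCGCAA (0.183%), searched on both strands. GAGGAAGT contains GAGGAA and GGAAGT. Of the 6 members with an entry, *Ms4a4b*, *Ms4a4c* and *Ms4a7* held GAGGAA, and *Ms4a4a* held none of the motifs. These are matches of letters and say nothing of binding in these cells.

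Total counts were 12433402 to 17889654 per library. Levels are CPM, the counts of a gene scaled to a common library total with TMM factors, and 3 counts, the smallest number taken as detected, correspond to 0.169 to 0.227 CPM in a library. The 9 microglial markers, among them *Tmem119* and *P2ry12*, were detected in all groups at a summed 25215 to 30784 CPM, against 177 to 652 CPM for 7 border macrophage markers. *Ms4a4b* did not reach the count needed for testing, so that 6 of the 7 members were tested. Differences were tested with edgeR's quasi-likelihood test, p-values were adjusted with the Benjamini-Hochberg method over 15425 genes, and a gene is called at an adjusted p-value under 0.05. In such bulk samples, fewer cells of a type and less RNA per cell cannot be told apart.

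**Figure D1:**
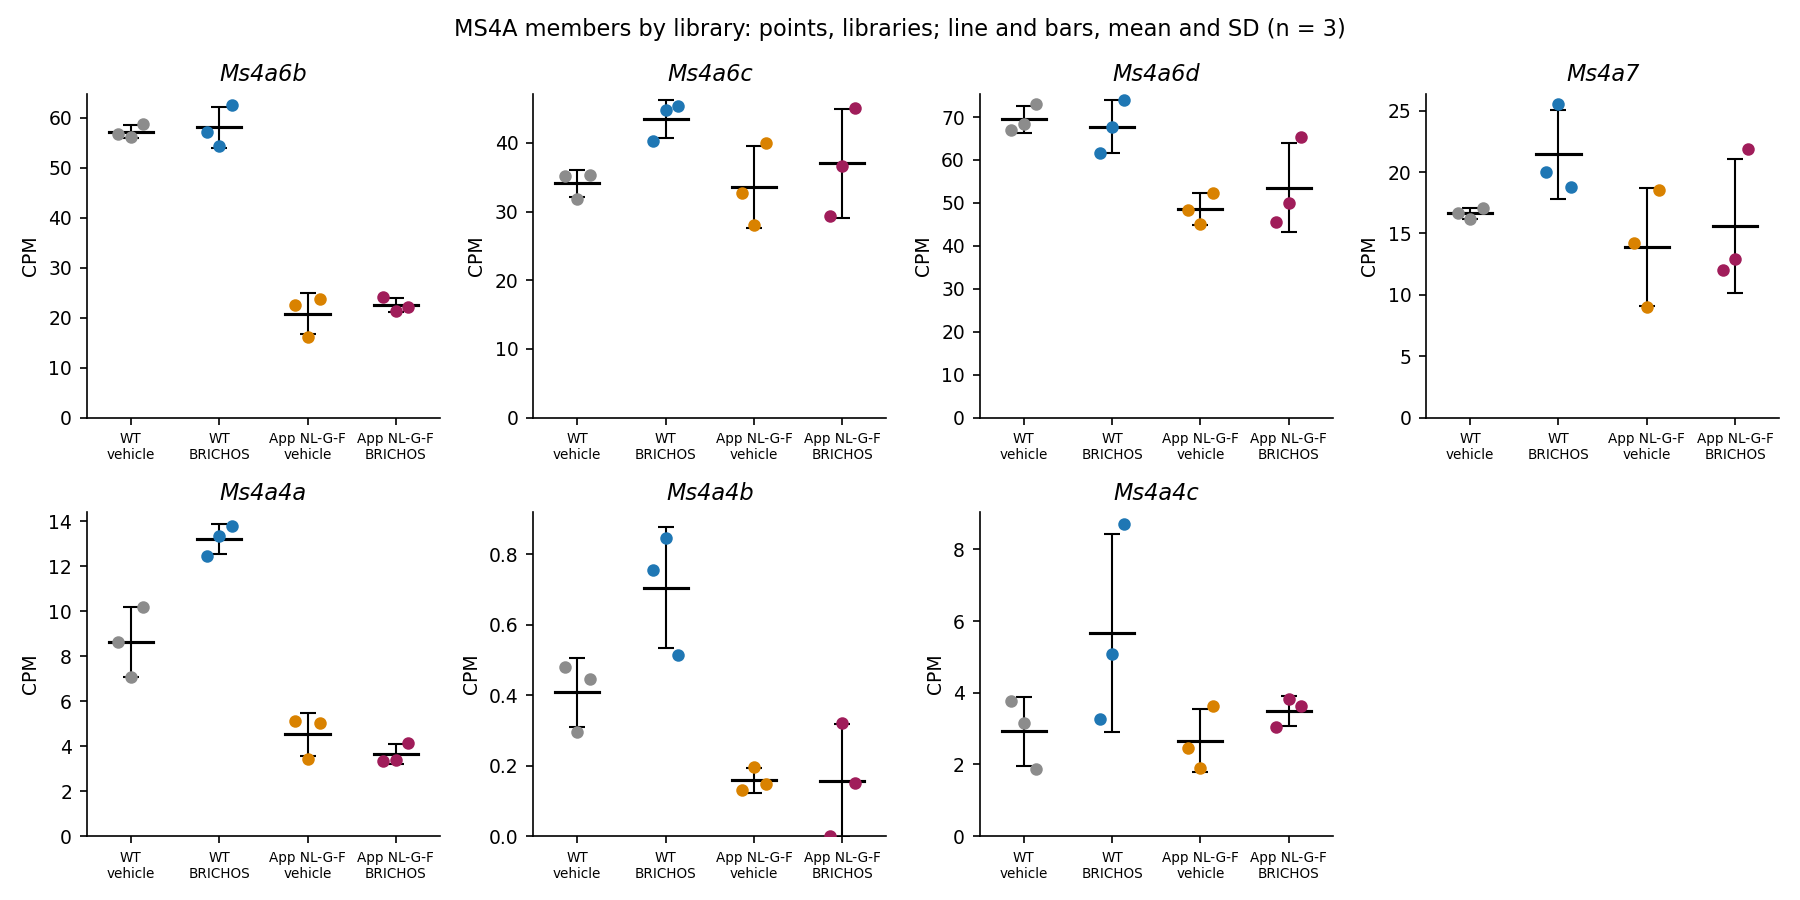
CPM (vertical axis, linear, from 0) of the 7 members in the 4 groups. Each point is a library, and lines and bars are the mean and SD of 3 mice. For *Ms4a6b* all 6 App NL-G-F libraries, at 16.1 to 24.1 CPM, lie below all 6 WT libraries, at 54.5 to 62.6 CPM, whereas for *Ms4a6c* the veh-treated groups overlap.

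Of the 6 tested members, *Ms4a6b* had the largest strain difference among veh-treated mice. Its levels were 56.8, 56.2 and 58.7 CPM in WT veh mice and 22.5, 16.1 and 23.7 CPM in App NL-G-F veh mice. The groups did not overlap, and the mean fell from 57.3 ± 1.30 to 20.8 ± 4.09 CPM (SD, n = 3), a 2.76-fold lower level (log2 fold change -1.46 ± 0.12, SE, adjusted p = 2.95e-06 in edgeR's quasi-likelihood test). With rh Bri2 BRICHOS R221E, the levels were 57.3, 54.5 and 62.6 CPM in WT and 24.1, 21.3 and 22.1 CPM in App NL-G-F mice. The strain difference was again present (-1.37 ± 0.12, SE, edgeR's adjusted p = 4.24e-06). Treated and veh-treated mice of the same strain overlapped, with a log2 difference of 0.02 (95% confidence interval -0.23 to 0.27) in WT and 0.12 (-0.15 to 0.39) in App NL-G-F mice.

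*Ms4a6d* fell to a smaller extent. Its levels were 67.0, 68.4 and 73.0 CPM in WT veh mice and 48.3, 45.0 and 52.4 CPM in App NL-G-F veh mice. Here too the groups did not overlap (log2 fold change -0.52 ± 0.12, SE, adjusted p = 0.00553 in edgeR's quasi-likelihood test), and the level was 1.43-fold lower. With rh Bri2 BRICHOS R221E, WT mice had 61.7, 67.7 and 74.0 CPM and App NL-G-F mice 45.4, 49.97 and 65.3 CPM. The third App NL-G-F library lay within the WT range, and the difference of -0.34 ± 0.12 (SE) had an edgeR adjusted p-value of 0.0369. This call was lost with DESeq2's size factors (adjusted p = 0.0507), and it was lost without any of 6 libraries. These were replicate 2 or 3 of WT BRICHOS mice (adjusted p = 0.0798 and 0.122), replicate 1 or 2 of App NL-G-F BRICHOS mice (0.133 and 0.125), replicate 2 of WT veh mice (0.0520) and replicate 1 of App NL-G-F veh mice (0.0602).

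*Ms4a6c*, the gene most like *Ms4a6b* in coding sequence, did not pass the test in any comparison. It stood at 35.1, 31.8 and 35.3 CPM in WT veh mice and at 32.6, 28.1 and 40.0 CPM in App NL-G-F veh mice. These ranges overlapped, with a log2 difference of -0.02 (95% confidence interval -0.35 to 0.31, edgeR's adjusted p = 0.923). In WT BRICHOS mice the levels were 40.2, 44.7 and 45.4 CPM. All 3 lay above the WT veh mice, with a log2 difference of 0.35 ± 0.15 (SE) that had an unadjusted p-value of 0.0387 and an adjusted p-value of 0.411 in edgeR. Treated App NL-G-F mice had 29.3, 36.7 and 45.1 CPM, and the strain difference with treatment was -0.23 (-0.56 to 0.10, edgeR's adjusted p = 0.235).

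Within single libraries, the ratio of *Ms4a6b* to *Ms4a6c* counts is free of the scaling between libraries. It was 1.62, 1.77 and 1.66 in WT veh mice, 1.42, 1.22 and 1.38 in WT BRICHOS mice, 0.688, 0.572 and 0.593 in App NL-G-F veh mice and 0.822, 0.581 and 0.491 in App NL-G-F BRICHOS mice. *Ms4a6b* thus held more counts than *Ms4a6c* in all 6 WT libraries and fewer in all 6 App NL-G-F libraries. Which gene holds more counts also depends on the annotated exon lengths, 4485 bases for *Ms4a6b* and 2050 for *Ms4a6c*. Per kb of exon, mean *Ms4a6b* lay below *Ms4a6c* in WT veh (12.8 and 16.6 CPM per kb) as in App NL-G-F veh mice (4.63 and 16.4). The ratio was chosen after the levels had been seen and was not tested.

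**Figure D2:**
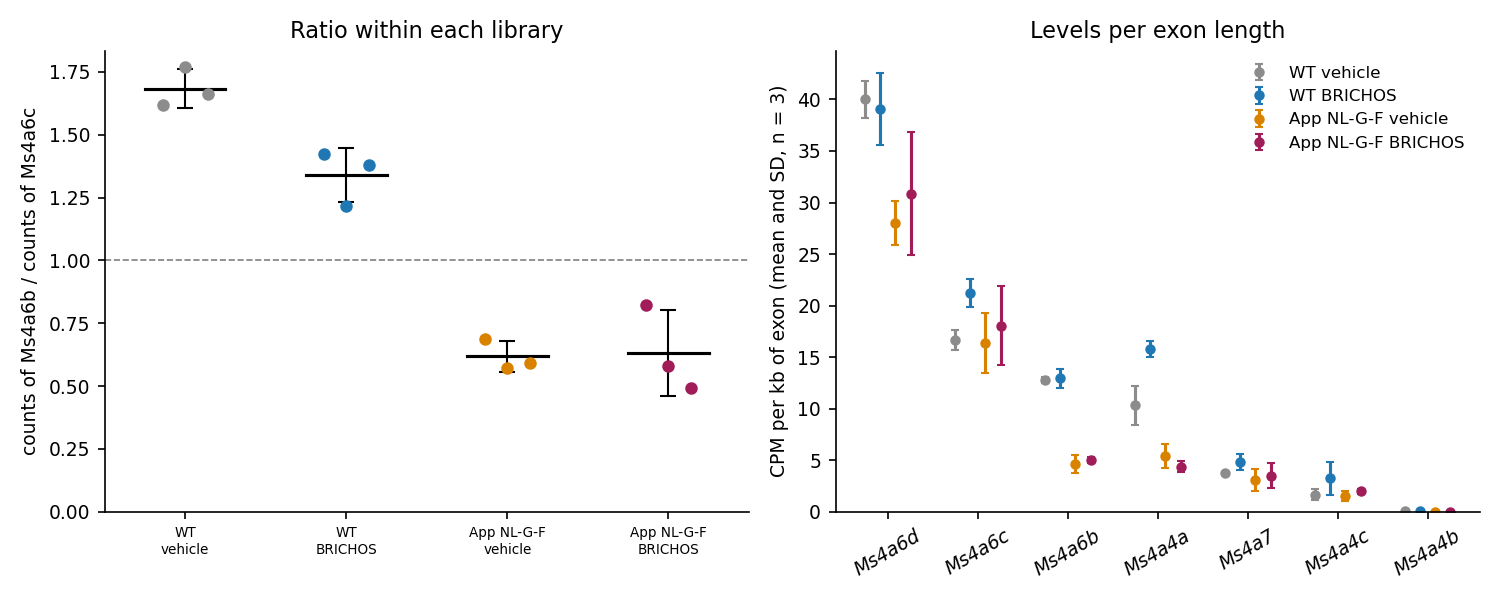
Left, counts of *Ms4a6b* divided by counts of *Ms4a6c* in each library (points), with mean and SD of 3 mice; the dashed line marks equal counts, and WT libraries lie at 1.22 to 1.77 and App NL-G-F libraries at 0.491 to 0.822. Right, mean CPM per kb of annotated exon with SD (n = 3) for the 7 members, with *Ms4a6d* highest and *Ms4a4b* lowest in all groups.

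Among BRICHOS-treated mice, *Ms4a4a* had the largest strain difference of the 6 tested members. Its levels were 8.63, 7.06 and 10.2 CPM in WT veh mice and 5.12, 3.41 and 5.04 CPM in App NL-G-F veh mice. These groups did not overlap, and the level was 1.91-fold lower in App NL-G-F mice (log2 fold change -0.93 ± 0.18, SE, adjusted p = 0.00215 in edgeR's quasi-likelihood test). With rh Bri2 BRICHOS R221E, WT mice had 12.5, 13.3 and 13.8 CPM and App NL-G-F mice 3.36, 3.39 and 4.15 CPM, a 3.64-fold difference (-1.86 ± 0.19, SE, edgeR's adjusted p = 1.21e-05). All 3 WT BRICHOS mice thus lay above all 3 WT veh mice. That difference of 0.62 ± 0.17 (SE) had an unadjusted p-value of 0.00437, and its adjusted p-value in edgeR was 0.253. In App NL-G-F mice the treated and veh-treated groups overlapped, with a difference of -0.32 (95% confidence interval -0.74 to 0.10). Between the strains, the treatment differences themselves differed by -0.93 ± 0.26 (SE), with an unadjusted p-value of 0.00396 and an edgeR adjusted p-value of 0.175, so that this was not called.

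*Ms4a4c* and *Ms4a4b*, the pair most alike in coding sequence, had low counts. *Ms4a4c* stood at 3.77, 3.14 and 1.86 CPM in WT veh, at 3.28, 5.07 and 8.70 CPM in WT BRICHOS, at 2.46, 1.90 and 3.63 CPM in App NL-G-F veh and at 3.03, 3.84 and 3.63 CPM in App NL-G-F BRICHOS mice. All groups overlapped with the group they were compared with, and no comparison was called. The difference between treated and WT veh mice was 0.95 ± 0.36 (SE, unadjusted p = 0.0231, adjusted p = 0.368 in edgeR), and 1 treated library, at 8.70 CPM, lay above all other libraries. *Ms4a4b* had 7, 5 and 6 counts in WT veh, 12, 15 and 9 in WT BRICHOS, 2, 3 and 2 in App NL-G-F veh and 0, 5 and 2 in App NL-G-F BRICHOS mice. In 5 of the 6 App NL-G-F libraries it was at or below 3 counts. A fit without the filter on low counts gave *Ms4a4b* an adjusted p-value of 0.278 for the strain difference with veh and of 0.0318 with treatment (edgeR).

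*Ms4a7* did not pass the test in any comparison. Its levels were 16.6, 16.2 and 17.1 CPM in WT veh, 20.0, 25.6 and 18.8 CPM in WT BRICHOS, 14.2, 8.99 and 18.5 CPM in App NL-G-F veh and 12.0, 12.9 and 21.9 CPM in App NL-G-F BRICHOS mice. The WT veh mice lay close together, whereas the lowest and the highest App NL-G-F library differed by more than the strain means. The strain difference was -0.26 (95% confidence interval -0.84 to 0.32) with veh and -0.46 (-1.03 to 0.11) with treatment, so these intervals include a fall as large as that of *Ms4a6d* as well as no fall. Treated WT mice all lay above WT veh mice (0.37, -0.20 to 0.93, edgeR's adjusted p = 0.633).

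Among veh-treated mice, 3 of the 6 tested members were thus called, all lower in App NL-G-F mice, where 37.0% of all 15425 tested genes were called and 16.9% were called lower. Among treated mice 3 of 6 were called, again all lower, where 42.5% of all genes were called and 21.8% were called lower. The median log2 difference of the 6 members was -0.39 with veh and -0.58 with treatment, against -0.02 and -0.04 over all tested genes. With library totals in place of TMM factors, the median of all tested genes shifted to -0.21 and -0.31, 72.2% and 81.5% of the called genes were lower against 45.7% and 51.2% with TMM factors, and 3 and 6 members were called, all lower, as were 33.7% and 45.4% of all tested genes. Under that scaling *Ms4a6c* was at -0.21 with veh, which is the median of all genes, and *Ms4a6b* at -1.65.

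rh Bri2 BRICHOS R221E gave no called member in either strain. In App NL-G-F mice, edgeR called 0 of the 6 members at an adjusted and 0 at an unadjusted p-value under 0.05, where 0.00648% and 10.8% of all genes were called. In WT mice, edgeR called 0 members at an adjusted p-value (0% of all genes), and 3 members, *Ms4a4a*, *Ms4a4c* and *Ms4a6c*, were higher at an unadjusted p-value under 0.05, as were 6.55% of all genes. No member was called when the treatment differences of both strains were set against each other (0.00648% of all genes), and *Ms4a4a* was lower at an unadjusted p-value under 0.05, as were 9.54%. DESeq2's Wald test with all libraries also called 0 members in these 3 comparisons. Over all 15425 tested genes it called 119 in App NL-G-F mice, 80 in WT mice and 244 for the difference between them. The difference between the treatment differences uses the libraries of both treatment comparisons and is not independent of them. All comparisons also share the estimate of the spread of each gene.

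**Figure D3:**
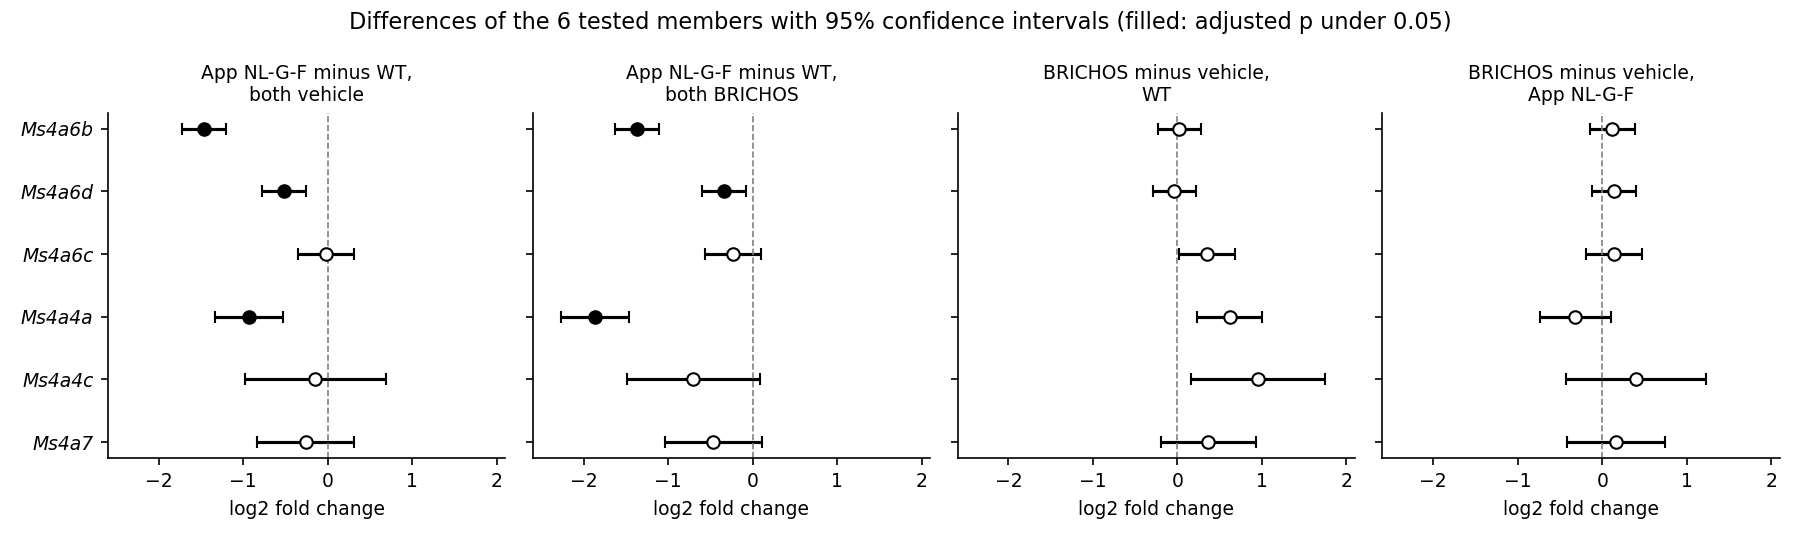
Log2 fold changes of the 6 tested members (horizontal axis) with 95% confidence intervals from edgeR for both strain and both treatment comparisons. Filled points have an adjusted p-value under 0.05, which holds for *Ms4a6b*, *Ms4a6d* and *Ms4a4a* between the strains and for no member between treated and veh-treated mice.

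RNA of astrocytes and of other cell types differed between the same groups. Oligodendrocyte markers summed to 7413 to 12956 CPM in WT veh and 2465 to 4370 CPM in App NL-G-F veh mice. Called lower in App NL-G-F veh mice were 1 of 4 oligodendrocyte, 2 of 4 neuronal, 3 of 4 endothelial and 1 of 5 B cell markers. With treatment these counts were 0, 3, 3 and 3. The part of these cells in the values of the members was not tested. The 5 astrocyte markers, among them *Aqp4* and *Gja1*, were all called higher in App NL-G-F veh mice, with a summed 1743, 1651 and 595 CPM against 272 to 356 CPM in WT veh mice. With the astrocyte marker score as a covariate, *Ms4a6b* was still called among veh-treated mice (edgeR's adjusted p = 0.000993), whereas *Ms4a4a* (-0.83, adjusted p = 0.114) and *Ms4a6d* (-0.48, adjusted p = 0.153) were not. In that fit 2318 of all 15425 tested genes were called, against 5710 without the covariate. The SE rose from 0.18 to 0.32 for *Ms4a4a* and from 0.12 to 0.21 for *Ms4a6d*. In the App NL-G-F veh library with 595 CPM, the least astrocyte RNA of these 3, *Ms4a6b* stood at 23.7, *Ms4a6d* at 52.4 and *Ms4a4a* at 5.04 CPM, all below the WT veh range. These values come from that library alone, and its astrocyte RNA was still above that of all WT veh libraries. The part of astrocyte RNA in the values of the members was not tested. Among treated mice 0 of the 5 astrocyte markers were called in edgeR, also at an unadjusted p-value under 0.05. With the covariate the same 3 members were called, among 6733 genes against 6560 without it.

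Markers of other myeloid cells moved with the strains as well. Of 7 border macrophage markers (*Mrc1*, *Cd163*, *Lyve1*, *Pf4*, *Cbr2*, *F13a1* and *Folr2*), 6 were called lower in App NL-G-F veh and 7 in App NL-G-F BRICHOS mice, and none was at 0. Their summed level was 402 to 474 CPM in WT veh, 535 to 652 in WT BRICHOS, 177 to 239 in App NL-G-F veh and 177 to 230 in App NL-G-F BRICHOS mice. In WT mice 6 of the 7 were higher with rh Bri2 BRICHOS R221E at an unadjusted p-value under 0.05 and 0 at an adjusted one. *Ms4a4a* amounted to 1.97 ± 0.20%, 2.24 ± 0.30%, 2.14 ± 0.22% and 1.73 ± 0.24% (SD, n = 3) of this sum in WT veh, WT BRICHOS, App NL-G-F veh and App NL-G-F BRICHOS mice. In the same order of groups, *Ms4a6b* amounted to 13.2 ± 0.79%, 9.88 ± 1.69%, 9.82 ± 0.68% and 10.7 ± 1.24%. For *Ms4a6c* the proportions were 7.82 ± 0.33%, 7.36 ± 0.98%, 15.9 ± 0.78% and 17.7 ± 4.33%, and for *Ms4a7* 3.82 ± 0.21%, 3.59 ± 0.30%, 6.47 ± 1.33% and 7.34 ± 2.15%. *Ms4a14*, described further on, amounted to 0.921 ± 0.15%, 1.29 ± 0.10%, 1.20 ± 0.30% and 1.31 ± 0.14%. *Ms4a6d* amounted to 16.0 ± 0.91%, 11.5 ± 2.01%, 23.3 ± 1.93% and 25.4 ± 4.95%. For *Ms4a4c* the proportions were 0.681 ± 0.25%, 0.984 ± 0.57%, 1.25 ± 0.24% and 1.69 ± 0.44%. With veh and with treatment, mean proportions were higher in App NL-G-F mice for *Ms4a6c*, *Ms4a6d*, *Ms4a7*, *Ms4a4c* and *Ms4a14*. They were lower for *Ms4a4b*, which had few counts. Those of *Ms4a4a* and *Ms4a6b* had no common direction between the strains with veh and with treatment. The marker sum itself was lower in App NL-G-F mice. These proportions were not tested. The part of border macrophages in the values of the members was not tested.

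**Figure D4:**
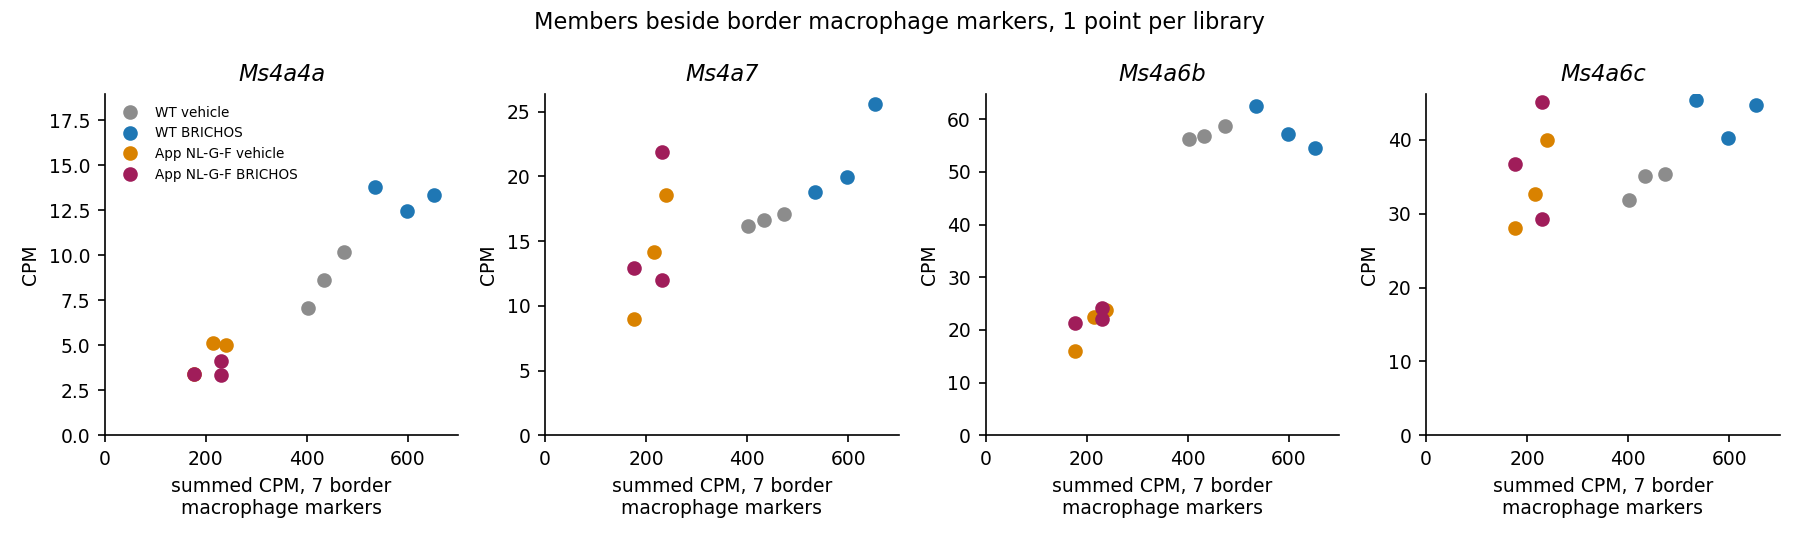
CPM of *Ms4a4a*, *Ms4a7*, *Ms4a6b* and *Ms4a6c* (vertical axes) against the summed CPM of 7 border macrophage markers (horizontal axis), with a point for each of the 12 libraries. *Ms4a4a* and the markers are both highest in WT BRICHOS mice. *Ms4a6b* is at 56.2 to 58.7 CPM in WT veh and 54.5 to 62.6 CPM in WT BRICHOS mice. The summed markers are at 402 to 474 and 535 to 652 CPM in these groups, with 0 of the 7 called between them.

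Of 6 monocyte markers, 3 were called lower in App NL-G-F veh and 5 in App NL-G-F BRICHOS mice, with a summed 22.2 to 55.4 CPM in WT veh, 41.1 to 104 in WT BRICHOS, 17.7 to 24.9 in App NL-G-F veh and 11.7 to 27.9 in App NL-G-F BRICHOS mice. The 6 neutrophil markers summed to 34.2 to 427 CPM in WT and 12.0 to 35.3 CPM in App NL-G-F libraries. All 6 were called lower in App NL-G-F mice with veh (median log2 fold change -4.18) and 4 with treatment. The 7 T and NK cell markers summed to 1.04 to 1.25 CPM in WT veh, 1.86 to 2.52 in WT BRICHOS, 0.583 to 0.985 in App NL-G-F veh and 0.194 to 0.960 CPM in App NL-G-F BRICHOS mice, with *Trbc2* at 0 in the first and *Cd3d* at 0 in the last group. *Nkg7*, the 1 tested marker among them, was called lower in App NL-G-F than in WT mice with treatment (-2.18 ± 0.51, SE, edgeR's adjusted p = 0.00492) and not with veh (-1.23 ± 0.57, adjusted p = 0.113). Of the 4 mast cell markers, *Tpsb2* and *Mcpt4* were at 0 in all groups and *Cpa3* reached a mean of 0.231 CPM at most. *Kit*, the 1 tested, stood at a mean of 2.51, 3.15, 0.949 and 1.13 CPM in WT veh, WT BRICHOS, App NL-G-F veh and App NL-G-F BRICHOS mice, and was called lower in App NL-G-F mice with veh and with treatment (edgeR's adjusted p = 0.0241 and 0.0139). Of the 9 microglial markers, 6 were called lower and 2 higher in App NL-G-F mice, with either treatment. The part of these cells in the values of the members was not tested.

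Compared per kb of annotated exon, *Ms4a6d* had the highest level in all 4 groups (28.0 ± 2.13 to 40.0 ± 1.80 CPM per kb, SD, n = 3), followed by *Ms4a6c* (16.4 ± 2.93 to 21.2 ± 1.36). *Ms4a6b* and *Ms4a4a* came next and changed places between groups. In WT veh mice they stood at 12.8 ± 0.29 and 10.3 ± 1.88 CPM per kb, and in App NL-G-F veh mice at 4.63 ± 0.91 and 5.41 ± 1.15, where their libraries overlapped. *Ms4a7* (3.12 ± 1.07 to 4.81 ± 0.81), *Ms4a4c* (1.52 ± 0.50 to 3.24 ± 1.58) and *Ms4a4b* (0.0179 ± 0.0182 to 0.0803 ± 0.0194) followed. In App NL-G-F veh and in WT BRICHOS mice, the libraries of *Ms4a7* overlapped with those of *Ms4a4c*. *Ms4a6d* made up 47.0 ± 1.44% of the summed level per kb of the 7 members in WT veh and 47.7 ± 3.37% in App NL-G-F veh mice, whereas *Ms4a6b* made up 15.0 ± 0.39% and 7.80 ± 0.66%. This order and these shares depend on the annotated lengths, such as 836 bases for *Ms4a4a*, 2050 for *Ms4a6c* and 4485 for *Ms4a6b*. In CPM without lengths, *Ms4a6b* lay above *Ms4a6c* in WT veh mice (57.3 and 34.1).

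The genes most like each member were sought among 9213 genes outside the family, by the Pearson correlation of log2 CPM over the 12 libraries. These include both strains, so differences between the strains enter the correlations. For *Ms4a4a* these were *Cd163* (r = 0.98), a scavenger receptor of macrophages, *Elac1* (0.98) and *F13a1* (0.98), which encodes a coagulation factor made by macrophages. Both *Cd163* and *F13a1* belong to the border macrophage markers above. For *Ms4a6b* they were *Serpinf1*, *Hps3* and *Slco4a1* (each 0.99), for *Ms4a6d* *Zscan29* (0.97), *Abcb4* and *Fam118b* (both 0.95), and for *Ms4a7* *Cd47* (0.93), *Xpot* (0.85) and *Arhgap19* (0.84). For *Ms4a6c* they were *Stx2* (0.84), *Exoc1* (0.82) and *Siglec1* (0.82), a lectin of macrophages, and for *Ms4a4c* *Gsr* (0.85) and *Zcchc9* (0.84). All these correlations share the libraries and their depths.

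Of the other 12 genes with an Ms4a symbol, 2 passed the filter on low counts. *Ms4a14*, the neighbour of *Ms4a7*, stood at 3.99 ± 0.35 CPM in WT veh, 7.69 ± 1.33 in WT BRICHOS, 2.50 ± 0.64 in App NL-G-F veh and 2.79 ± 0.53 CPM in App NL-G-F BRICHOS mice (SD, n = 3). It was called lower in App NL-G-F mice with veh (-0.67 ± 0.22, SE, edgeR's adjusted p = 0.0352) and with treatment (-1.46 ± 0.22, adjusted p = 0.00026). The 3 WT BRICHOS mice, at 6.24 to 8.84 CPM, lay above the veh-treated ones, at 3.77 to 4.39 CPM, with an unadjusted p-value of 0.000842 and an adjusted p-value of 0.214 in edgeR. *Ms4a1* had 1 to 13 counts in WT veh, 8 to 17 in WT BRICHOS, 1 to 7 in App NL-G-F veh and 0 to 2 in App NL-G-F BRICHOS mice, and was called between the BRICHOS-treated strains (edgeR's adjusted p = 0.0159). The remaining 10 held at most 37 counts in all libraries together, and *Ms4a5*, *Ms4a10*, *Ms4a12*, *Ms4a13* and *Ms4a18* held none. *Tmem176a* and *Tmem176b*, more distant relatives on chromosome 6, rose in App NL-G-F veh mice, from 91.6 ± 11.0 to 178 ± 9.80 CPM and from 218 ± 13.6 to 351 ± 7.0 CPM (edgeR's adjusted p = 2.14e-05 and 3.74e-05), opposite in direction to *Ms4a6b*, *Ms4a6d* and *Ms4a4a*.

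In the TREM2 pathway, to which the human MS4A genes have been linked, *Trem2* rose from 917 CPM in WT veh to 2530 CPM in App NL-G-F veh mice (log2 fold change 1.46 ± 0.08, SE, adjusted p = 8.30e-08 in edgeR). *Tyrobp*, which encodes its signalling adaptor, rose from 771 to 2297 CPM (1.57 ± 0.09, SE, edgeR's adjusted p = 2.12e-07). Of the 10 genes of the pathway list, 3 were called higher and 6 lower with veh, and 4 higher and 4 lower with treatment. Of 13 interferon-stimulated genes, 6 were called higher with veh and 8 with treatment, and none lower. None of these genes was called between treated and veh-treated mice of either strain in edgeR, and at an unadjusted p-value under 0.05 2 genes of the pathway list were higher in App NL-G-F mice, 3 were lower in WT mice, and 2 interferon-stimulated genes were higher in WT mice.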

How the data were processed

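RNA-sequencing libraries of CD11b-positive cortical cells from 12 mice were analysed, grouped by the names of the libraries. The authors deposited raw counts without normalization, which they had made by trimming with Cutadapt, alignment to GRCm38 by STAR and assignment to genes by featureCounts (version 1.5.1 per the submitters' processing notes). The strand setting and the handling of reads that fit several genes are not given in the sources used here. Ensembl identifiers were matched to symbols for 55227 genes with the GENCODE annotation of GRCm38. In R 4.3.3, genes were kept by the filterByExpr function of edgeR 4.0.16 with a minimum count of 10, TMM factors were computed, and the quasi-likelihood model had 1 mean per group over all 4 groups. SEs are the absolute log2 fold change divided by the square root of the F statistic. Log2 CPM values used a prior count of 2. The tests were checked on simulated counts with equal numbers of raised and lowered genes, far fewer than were called between the strains. This does not check the scaling between libraries where many genes differ.

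The libraries of a group are separate mice, so p-values measure the spread between mice. No batch is given in the labels. Alternatives were DESeq2 1.42.0 (size factors, and the Wald test with all or only the compared groups), edgeR with only the compared groups, no filter, at least 10 counts in every library, a minimum absolute log2 fold change of 1, a replicate block, the mean log2 CPM of the astrocyte markers as a covariate, the omission of each library in turn and, added after seeing the data, library totals in place of TMM factors. The members and all lists of genes were chosen with earlier results of these data known. Named were the members, the other Ms4a genes with *Tmem176a* and *Tmem176b* where they passed the filter, *Trem2*, *Tyrobp*, and for each tested member the 3 genes with the highest correlation among those with a mean of at least 10 CPM. For *Ms4a4c*, 1 of these 3 is not reported here. Overlap neighbours, markers at 0 and genes of other lists named beside them were chosen after their values were seen, as was the motif GGAAGT. Coding sequences are the longest of each gene in the GENCODE transcripts.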

Additional observations from a re-analysis of the deposited data

How the results depend on the processing

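Among veh-treated mice, *Ms4a6b* was called under every alternative run. *Ms4a4a* and *Ms4a6d* were called under all except the astrocyte covariate, and *Ms4a4a* and *Ms4a6d* also miss an absolute log2 fold change of 1, so that 1 member was left under either. Leaving out each library in turn gave 3 called members every time, among 4449 to 5981 called genes of the 15696 to 15907 tested. Among treated mice, the number of called members was 2 to 5 when each library was left out in turn, with 5 without replicate 3 of the treated App NL-G-F mice, where *Ms4a7* and *Ms4a4b* were also called, and 2 without replicate 2 of the treated WT mice. Over all genes, these fits called 5461 to 6693 of the 15696 to 15907 tested. *Ms4a4b* passed the filter and was called in each of these fits except those without replicate 1 or 2 of the treated WT mice, in which it was not tested, so that a count of 3 can hold *Ms4a4b* in place of *Ms4a6d*. The number of called members was 6 with library totals, in which the median of all genes was at -0.31. *Ms4a6d* was not called with only the compared groups in edgeR (adjusted p = 0.104) or DESeq2 (adjusted p = 0.104), and *Ms4a4c* was called without replicate 1 of the treated WT mice (adjusted p = 0.041). No member was called for either treatment comparison or for the difference of the treatment effects under any alternative, and no called difference changed its direction. Few genes of any kind were called there. Over all genes, the alternative fits called 0 to 162 in App NL-G-F and 0 to 134 in WT mice. For the difference of the treatment effects they called 0 to 244. These fits tested 12792 to 29173 genes. Libraries of equal number did not deviate together in every pair (correlations of -0.01 to 0.23 within comparisons), and a replicate block called the same 3 members with veh and the same 3 with treatment, among 5991 and 6822 genes against 5710 and 6560 without it. With 3 mice in a group, the 95% confidence intervals of *Ms4a4c* and *Ms4a7* are wide, and *Ms4a4b* is close to the smallest detectable level.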

Other observations

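Several members varied together between mice of the same group. After removal of the group means, the Pearson correlation of log2 CPM over 12 libraries was 0.88 between *Ms4a6c* and *Ms4a6d*, 0.86 between *Ms4a6c* and *Ms4a7* and 0.74 between *Ms4a6d* and *Ms4a7*. *Ms4a4a* had values of 0.72 with *Ms4a6c* and with *Ms4a7*, 0.64 with *Ms4a6d* and 0.69 with *Ms4a6b*. The correlation was 0.38 between *Ms4a6b* and *Ms4a6c* and 0.27 between *Ms4a6b* and *Ms4a6d*. These are descriptions that share the libraries and their depths. The protein-coding gene *Gm8369*, which lies between *Ms4a6c* and *Ms4a6b* on the same strand, held 74 counts in all libraries, against 7446 for *Ms4a6b*.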
